A study of Mus musculus with 6 samples.

Results

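The 10 genes described here mark Kupffer cells, the macrophages that live in the sinusoids of the liver: Clec4f, Vsig4, Marco, Cd5l, Timd4, Adgre1, Csf1r, Clec1b, C1qa and C1qb. Every probe set whose platform annotation named exactly 1 of these genes was taken, which gave 15 of 45101 probe sets and 10 of 18194 annotated genes. Marco has 2 probe sets, Csf1r and C1qb have 3 each, and the other 7 genes have 1. The study compared livers of C57BL/6 mice after 6 weeks on a ketogenic diet (F3666, Bio-Serv), in which nearly all energy comes from fat, with livers after 6 weeks on chow (Labdiet 5008, Pharmserv), a grain-based diet. Both diets began at 8 weeks of age, food was freely available and livers were taken in the morning. Each diet has 3 one-colour Affymetrix arrays of total liver RNA. The design text speaks of RNA from 2 to 3 animals per diet without saying whether an array held 1 mouse, so the p-values cover the spread from array to array, part of which may be technical; the sex of the mice is not stated.

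Kupffer cells are seeded before birth, renew in place and depend on signalling through the receptor Csf1r. They face the portal blood, from which they take up bacteria, immune complexes, aged red cells and modified lipoproteins, and their identity rests on transcription factors that include PU.1 and members of the MAF family. When they are lost, blood monocytes can settle in their place and acquire most of their markers, with Timd4 among the late ones. In mice Clec4f is close to exclusive to Kupffer cells. Adgre1, Csf1r, C1qa and C1qb are shared with macrophages of many tissues, and Clec1b is also made by platelets and their precursors.

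The arrays differed between the diets in some control measures, whose part in the results below was not tested. The signal of the hybridization controls was 478 to 511 on ketogenic and 633 to 650.3 on chow arrays, and the ratio of 3' to 5' actin signal was 1.49 to 1.63 on ketogenic and 2.00 to 2.20 on chow arrays, without overlap in either. The trimmed mean signal overlapped, at 45.6 to 60.7 on ketogenic and 39.6 to 53.1 on chow arrays, and ketogenic array 3 was the lowest of its diet. The 7 measured hepatocyte genes, among them the albumin gene Alb, were far above background on every array, with a summed signal of 44058 to 49933 on ketogenic and 54519 to 56105 on chow arrays.

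Transcripts of 8 of the 10 marker genes rose on the ketogenic diet and those of 0 fell. Those that rose were Clec4f, Vsig4, Marco, Cd5l, Csf1r, Clec1b, C1qa and C1qb, whereas Adgre1 and Timd4 did not pass the test. In limma's test with Benjamini-Hochberg adjustment over all 22515 probe sets tested and a threshold of 0.05, 12 of the 15 marker probe sets were higher, against 4.08% of all probe sets. Of all 11866 genes tested, 5.92% had a higher probe set and 0.775% a lower one. The ratio of the mean signals of the diets was 2.28 to 4.72 for the 11 probe sets of the other 7 genes that rose. It was at least 8.89 for a Marco probe set whose mean log2 signal on chow lay under background. The median log2 change was 1.69 over the 15 probe sets and 0.22 over all probe sets tested. In whole liver, more cells of a type and more RNA per cell cannot be told apart.

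For 12 of the 15 probe sets every ketogenic array was above every chow array, which held for 21.6% of all probe sets tested. All 15 probe sets passed the filter on low signals, but both Marco probe sets were under its level on chow and passed only through the ketogenic arrays. Without Marco, 7 of 9 genes and 11 of 13 probe sets were higher, and the median log2 change was 1.58. The number of genes called depended on single arrays. It was 3 without ketogenic array 1 or 2 (C1qa, C1qb and Cd5l), 7 without ketogenic array 3 or chow array 1, and 5 without chow array 2 or 3. With no filter, where 45037 probe sets were tested, C1qb was the 1 gene called.

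**Figure D1:**
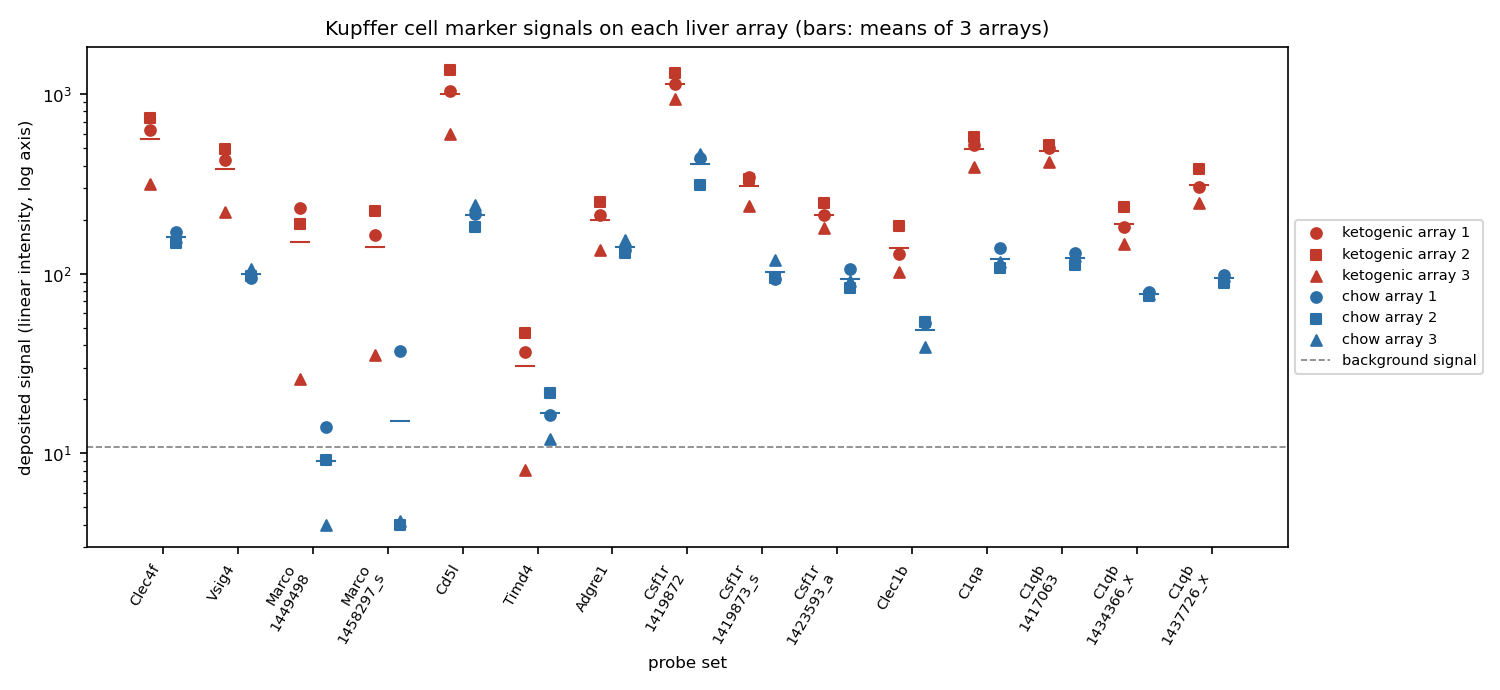
Deposited signal (linear intensity, log axis) of each of the 15 Kupffer cell marker probe sets on the 3 ketogenic arrays (red) and the 3 chow arrays (blue), with bars at the means of 3 arrays and a dashed line at the background signal of 10.8. The ketogenic arrays lie above the chow arrays for 12 probe sets, and the diets overlap for Timd4, Adgre1 and 1 probe set of Marco; the red triangle, ketogenic array 3, is the lowest ketogenic array for all 15.

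The promoters of 4 of these genes are shown, of which Cd5l, Vsig4 and C1qb passed the test and Timd4 did not. A missed threshold does not show that Timd4 responded otherwise. The transcription factors named above have short recognition motifs that can be looked for. The choice of 4 allows no comparison of motif with response. Clec4f and Clec1b, not shown, also passed and held no PU.1 match, while Marco, also not shown, passed and held 1. The sequences are RefSeq's for build GRCm38.p6, in which 7 of the 10 genes were matched; Adgre1, Csf1r and C1qa are named only. Each line gives the 250 bases before the gene start, 5′ to 3′ on the gene's strand, with capitals at matches on either strand to GAGGAA, the core of the PU.1 box, or TGCTGA, the core of the MAF recognition element.
Cd5l (chr3:87357631-87357880, plus strand): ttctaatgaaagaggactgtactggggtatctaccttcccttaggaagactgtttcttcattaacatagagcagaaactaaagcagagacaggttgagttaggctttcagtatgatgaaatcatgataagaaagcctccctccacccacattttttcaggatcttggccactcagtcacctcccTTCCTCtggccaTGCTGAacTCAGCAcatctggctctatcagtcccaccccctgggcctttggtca
Vsig4 (chrX:96293439-96293688, minus strand): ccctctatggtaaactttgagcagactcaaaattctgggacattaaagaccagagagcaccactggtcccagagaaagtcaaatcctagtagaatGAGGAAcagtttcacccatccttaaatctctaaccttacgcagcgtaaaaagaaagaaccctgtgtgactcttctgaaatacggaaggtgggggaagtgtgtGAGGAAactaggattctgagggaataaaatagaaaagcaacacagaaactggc
C1qb (chr4:136886201-136886450, minus strand): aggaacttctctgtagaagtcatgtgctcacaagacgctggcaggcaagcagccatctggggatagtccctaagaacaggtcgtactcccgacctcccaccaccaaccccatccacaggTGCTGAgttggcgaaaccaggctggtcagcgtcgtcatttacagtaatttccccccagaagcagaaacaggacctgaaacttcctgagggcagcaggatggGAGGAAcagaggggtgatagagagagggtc
Timd4 (chr11:46810549-46810798, plus strand): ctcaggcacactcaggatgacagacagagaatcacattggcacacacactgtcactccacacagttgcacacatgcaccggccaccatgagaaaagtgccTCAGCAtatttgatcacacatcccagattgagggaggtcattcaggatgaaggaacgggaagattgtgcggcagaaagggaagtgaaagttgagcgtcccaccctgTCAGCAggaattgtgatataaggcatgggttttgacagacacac

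In windows of 300 bases, which add 50 bases after the start, GAGGAA occurred on either strand in 4 of the 7 promoters (Vsig4, Marco, Cd5l and C1qb) and in 28.3% of 32817 mouse promoters. TGCTGA occurred in 5 of 7 (Clec4f, Vsig4, Cd5l, Timd4 and C1qb) and in 19.5% of all promoters. No match of one motif overlapped a match of the other in the printed sequences. The Cd5l promoter held a PU.1 core on the opposite strand at positions 185 to 190 from the 5′ end, then MAF cores, 1 on each strand, at 197 to 202 and 205 to 210, facing each other with 2 bases between. This arrangement, looked for after the Cd5l sequence was seen, was found in 2 of the 32817 promoters (0.00609%), of which Cd5l is 1. Vsig4 held PU.1 cores at 96 to 101 and 198 to 203, C1qb a MAF core at 120 to 125 and a PU.1 core at 221 to 226, and Timd4 MAF cores at 101 to 106 and 207 to 212. Clec1b held no match to either, which says only that these letters are not in this window. A match describes the letters and is not a measured site.

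Clec4f, a C-type lectin with which mouse Kupffer cells bind galactose-type glycans, had signals of 629.7, 738.4 and 315.5 on the ketogenic arrays, against 170.9, 147.4 and 159.9 on the chow arrays. All 3 ketogenic arrays were above the chow arrays, 2 of them close together and the third lower. The means were 561 ± 220 on ketogenic and 159 ± 11.8 on chow arrays (SD, n = 3 each), a log2 change of 1.73 ± 0.34 (SE) with limma adjusted p = 0.0277. The call was lost without ketogenic array 1 or 2 (adjusted p = 0.0859 and 0.0838) and without chow array 1, 2 or 3 (0.0539, 0.0604 and 0.0604). Over the 14 alternatives in processing the adjusted p ran from 0.00102 to 0.144, while the log2 change stayed between 1.49 and 2.10.

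Vsig4, a receptor for complement fragments that lets Kupffer cells catch opsonized particles from flowing blood, had signals of 428.3, 494.0 and 220.6 on ketogenic arrays and 94.4, 96.9 and 106.3 on chow arrays. Every ketogenic array was at least 2 times as high as any chow array. The means were 381 ± 143 and 99.2 ± 6.27 on ketogenic and chow arrays (SD, n = 3 each), a log2 change of 1.86 ± 0.33 (SE) with limma adjusted p = 0.0198. The call was lost without ketogenic array 1 (0.0622) or 2 (0.0625) and with no filter (0.119, the highest of the 14 alternatives; the lowest was 0.000374).

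Marco, a class A scavenger receptor for bacteria and particles, was near background on chow. Its probe set 1449498_at had signals of 233, 188.8 and 25.9 on ketogenic arrays, against 14, 9.2 and 4 on chow arrays, and its probe set 1458297_s_at had 164.3, 223.8 and 35.1 on ketogenic arrays, against 37, 4 and 4.2 on chow arrays. On the first probe set the diets were apart; on the second, ketogenic array 3 lay below chow array 1. The first changed by 3.70 ± 0.81 (log2, SE; limma adjusted p = 0.0380), or at least 8.89-fold when signals under the background of 10.8 were raised to it. The second, at least 6.70-fold higher by the same bound, did not pass (adjusted p = 0.0654). The call on the first held in 3 of 13 alternatives (0.00921 to 0.208), and it was lost without ketogenic array 1 (0.0748) or 2 (0.106), without chow array 1 (0.0516), 2 (0.0525) or 3 (0.0964), and when arrays were brought to a common median (0.0519).

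Timd4, a phosphatidylserine receptor for apoptotic cells that marks long-lived resident macrophages, had signals of 36.6, 46.5 and 8.1 on ketogenic arrays and 16.4, 21.6 and 12.0 on chow arrays. Ketogenic arrays 1 and 2 were above every chow array, and ketogenic array 3 was below them all and under background. The log2 change was 0.57 ± 0.60 (SE) with limma adjusted p = 0.638 and a 95% interval of -0.81 to 1.94, so neither no change nor a change as large as that of Clec4f lay outside it. No alternative took it past the threshold (0.103 to 0.962).

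Clec1b, the C-type lectin CLEC-2, had signals of 129.1, 183.1 and 102.5 on ketogenic arrays and 53.4, 53.7 and 39.0 on chow arrays, again without overlap. It changed by 1.48 ± 0.30 (log2, SE; limma adjusted p = 0.0293). The call was lost without ketogenic array 1, 2 or 3 (0.0816, 0.0873 and 0.0554), without chow array 2 or 3 (0.0525 and 0.0701) and with no filter (0.136, the highest of 14; the lowest was 0.00205). Platelets also carry Clec1b. Of 6 measured platelet genes 0 rose and 0 fell, their summed signal was 145.7 to 211.5 on ketogenic and 153.1 to 199.0 on chow arrays, and the brightest of them, Itga2b, the platelet integrin alpha IIb, had 59.7 ± 9.93 on ketogenic and 48.7 ± 20.5 on chow arrays (SD, n = 3 each; log2 change 0.39, limma adjusted p = 0.597). Scaled to the hybridization controls, 1 platelet gene rose. A further one, Gp9, was too dim to be tested.

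Cd5l, a secreted scavenger receptor protein also called AIM that macrophages release into blood, had signals of 1046.1, 1366.4 and 599.2 on ketogenic arrays, against 214.2, 182.5 and 240.8 on chow arrays. The lowest ketogenic array was more than 2 times as high as the highest chow array. The means were 1004 ± 385 and 213 ± 29.2 on ketogenic and chow arrays (SD, n = 3 each), a log2 change of 2.17 ± 0.34 (SE) with limma adjusted p = 0.0124. It passed in 13 of 14 alternatives, among them those that left out 1 array, and was lost with no filter (0.0919).

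C1qa and C1qb encode chains of C1q, the recognition part of the first complement component, which in most tissues is made by macrophages. C1qa had signals of 522.3, 575.4 and 391.6 on ketogenic arrays and 139.8, 107.4 and 115.7 on chow arrays. C1qb on its brightest probe set, 1417063_at, had 503.8, 520.4 and 418.6 on ketogenic arrays and 130.9, 111.2 and 125.1 on chow arrays. Both were apart between diets by more than the spread within either. C1qa changed by 2.03 ± 0.26 (log2, SE; limma adjusted p = 0.00665) and C1qb by 1.97 ± 0.24 (adjusted p = 0.00532). This C1qb probe set passed in 14 of 14 alternatives and C1qa in 13, the exception being no filter (0.0584). The other probe sets of C1qb, 1437726_x_at and 1434366_x_at, also rose, by 1.69 ± 0.26 (adjusted p = 0.0123) and 1.26 ± 0.26 (adjusted p = 0.0325). The call on 1434366_x_at was lost when any 1 array was left out (0.0561 to 0.110), and both were lost with no filter (0.0767 and 0.129).

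The third chain, C1qc, rose with them, at 594 ± 121 on ketogenic and 137 ± 19.6 on chow arrays (SD, n = 3 each; log2 change 2.11 ± 0.27 SE, limma adjusted p = 0.00635; lost with no filter, 0.0584). It was the 1 gene that rose of 5 measured in a list of C1 partners and of the start of the classical pathway, and 0 fell. The proteases and the inhibitor of that list, which hepatocytes make in quantity, did not pass. C1ra had 567 on ketogenic and 602 on chow arrays and C1s1 had 635 on ketogenic and 656 on chow arrays (means of 3). These 2 genes are named after their values were seen. The list's median log2 change was -0.09 and turned sign with the scaling of the arrays (-0.30 to 0.27).

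Csf1r is the receptor for the growth factors Csf1 and Il34 on which macrophages depend. Its probe set 1419872_at had signals of 1144.1, 1312.6 and 938.6 on ketogenic arrays and 438.1, 313 and 465.5 on chow arrays. The ketogenic arrays were all at least 2 times as high as any chow array. The 3 Csf1r probe sets changed by 1.49 ± 0.27, 1.58 ± 0.27 (1419873_s_at) and 1.18 ± 0.25 (1423593_a_at; log2, SE), with limma adjusted p = 0.0213, 0.0157 and 0.0353. Csf1r was called on 0 probe sets without ketogenic array 1 or 2, where the adjusted p lay between 0.0573 and 0.127, and on 0 with no filter (0.0899 to 0.131). Without ketogenic array 3 or chow array 2 only 1419873_s_at passed, and 1423593_a_at was lost without chow array 3 (0.0740).

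Of 9 measured genes for ligands of Csf1r and its signalling adaptors, 3 rose and 0 fell, with a median log2 change of 0.71. They were Csf1 itself, the adaptor Tyrobp and the adhesion adaptor Fyb. Tyrobp is also counted among the pan-macrophage genes below. Csf1 had 57.3 ± 5.26 on ketogenic and 18.4 ± 4.31 on chow arrays (SD, n = 3 each), a log2 change of 1.67 (limma adjusted p = 0.0139), lost without ketogenic array 1 and with no filter (at most 0.0858, at least 0.000619 over 13 alternatives). A second Csf1 probe set, 1448914_a_at, was at least 2.80-fold higher (adjusted p = 0.0328) and passed the filter only through the ketogenic arrays. Its call was lost in 9 of 13 alternatives, among them without any 1 ketogenic array and without chow array 1 or 2 (0.00998 to 0.163). The brightest Csf1 probe set, 1425154_a_at, had a change of -0.45 (adjusted p = 0.459), so Csf1 was not called with 1 test per gene. Tyrobp, an adaptor of activating receptors, had 339 ± 36.4 on ketogenic and 59.3 ± 15.6 on chow arrays (SD, n = 3 each; adjusted p = 0.00381). Fyb was at least 3.22-fold higher on 1435144_at (adjusted p = 0.00640; 0.0516 with no filter, the highest of 13 alternatives, the lowest being 0.00223), a probe set that was under the filter level on chow and passed only through the ketogenic arrays. Its other probe set, 1452117_a_at, was above that level on chow and rose by 1.75 (adjusted p = 0.0348), a call lost in 8 of 14 alternatives, among them without any 1 ketogenic array and without chow array 2 or 3 (0.00158 to 0.172). Il34, named after its values were seen, had a log2 change of -0.10 (adjusted p = 0.848).

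Adgre1 encodes F4/80, an adhesion receptor used as the general marker of mouse macrophages. It had signals of 212.3, 249.4 and 136.2 on ketogenic arrays, against 136.1, 130.2 and 153.6 on chow arrays. Ketogenic arrays 1 and 2 were above the chow arrays, and ketogenic array 3 lay among them. The means were 199 ± 57.7 and 140.0 ± 12.2 on ketogenic and chow arrays (SD, n = 3 each), a log2 change of 0.47 ± 0.29 (SE) with limma adjusted p = 0.408 and a 95% interval of -0.19 to 1.13. It passed in 0 of 14 alternatives (0.0567 to 0.725).

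**Figure D2:**
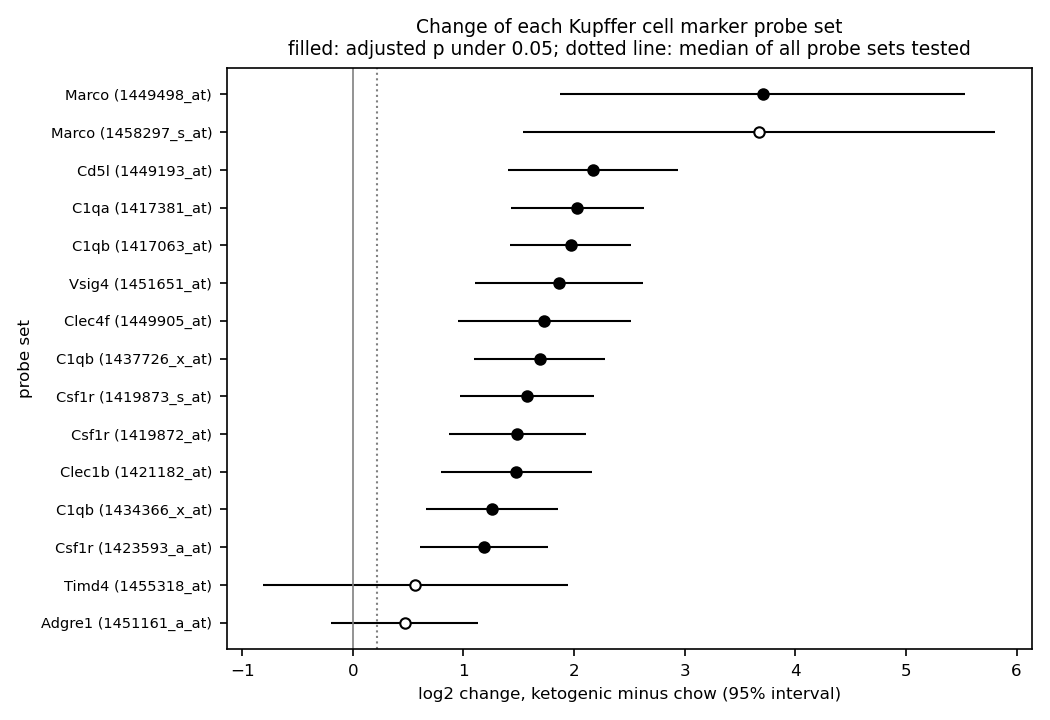
Log2 change (ketogenic minus chow) of the 15 Kupffer cell marker probe sets with 95% intervals, largest at the top; filled points have a limma adjusted p under 0.05 and the dotted line is the median of all probe sets tested, 0.22. The 12 filled points run from 1.18 to 3.70, and the open points are Marco 1458297_s_at, Timd4 and Adgre1.

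Macrophage genes in general rose as well, so the markers were also set against them. The comparison list held 15 genes that most macrophages express, and 15 of 15 rose, with a median log2 change of 1.96. Of these Aif1, with 57.1, 64.1 and 57.3 on ketogenic and 16.1, 2.8 and 6.3 on chow arrays, was under the filter level on chow and passed only through the ketogenic arrays (at least 4.75-fold). Their summed signal was 3292 to 3723 on ketogenic and 721.5 to 908.6 on chow arrays, and their mean log2 signal was 2.07 higher on ketogenic arrays, or 1.99 without Aif1 (for the 15 genes exact permutation p = 0.1, the smallest that 3 against 3 arrays allow). The list was chosen with earlier results of these data known, so neither the count of 15 nor this p is independent support. Lyz2, which encodes lysozyme, had 802 ± 116 on ketogenic and 125 ± 11.6 on chow arrays, and Cd68, a lysosomal glycoprotein, had 169 ± 26.1 on ketogenic and 25.8 ± 3.94 on chow arrays (SD, n = 3 each). Cd53, a leukocyte tetraspanin, rose by 2.14 (log2). Their limma adjusted p values were 0.00179, 0.00179 and 0.00327. The count of 15 was 9 without ketogenic array 3 and 4 with no filter. Of the list's 22 probe sets, 18 rose and 2 had a negative change that did not pass.

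When the mean log2 signal of these 15 genes was subtracted on each array and the same limma fit was run, 10 of the 15 marker probe sets did not pass, 5 were lower and 0 higher. Of all probe sets tested, 92.7% were lower and 0.36% higher on this scale. The subtracted mean was itself 2.07 higher on ketogenic arrays, so a gene that did not change is lower here. A call of lower therefore says only that a marker rose less than the macrophage genes, and does not set it apart from other genes. How many of all probe sets separate by diet on this scale was not counted. Among the 15 probe sets Adgre1 had the most negative difference. Its values were 0.49, 0.46 and -0.16 on ketogenic and 1.64, 2.05 and 1.90 on chow arrays. The diets did not overlap, and the difference was -1.60 ± 0.28 (log2, SE; adjusted p = 0.000631). Timd4 had -2.05, -1.97 and -4.24 on ketogenic and -1.41, -0.54 and -1.77 on chow arrays. It too was below chow on every ketogenic array, with a difference of -1.51 ± 0.61 and adjusted p = 0.0381, lost without ketogenic array 3 (0.102), without chow array 2 (0.130) and with no filter (0.0855).

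Csf1r was lower on this scale on 2 of its 3 probe sets, 1419872_at by -0.59 (adjusted p = 0.0428) and 1423593_a_at by -0.89 (adjusted p = 0.00639), and the call on 1419872_at was lost without ketogenic array 1, 2 or 3 (0.0723, 0.0987 and 0.136), without chow array 1 or 3 (0.0985 and 0.0720), with quantile normalization (0.0992), a floor of 16 (0.0542) or no filter (0.0945), and with Aif1 left out of the mean that was subtracted (0.0689). C1qb was lower on 1 of its 3 probe sets, 1434366_x_at, by -0.81 (adjusted p = 0.0145; 0.0594 without ketogenic array 3). The markers nearest 0 were C1qa at -0.05 (95% interval -0.62 to 0.53), Cd5l at 0.10 (-0.61 to 0.80) and C1qb 1417063_at at -0.10 (-0.66 to 0.45). Vsig4 had -0.21 (-0.96 to 0.54), Clec4f -0.34 (-1.09 to 0.40) and Clec1b -0.59 (-1.29 to 0.10; adjusted p = 0.0900, and 0.0334 without chow array 3). These intervals hold both 0 and changes of more than 0.4 in size. Marco had fitted differences of 1.63 and 1.60 on its 2 probe sets, with adjusted p = 0.0756 and 0.106. The mean log2 signal of both on chow was under background, though chow array 1 was above it. With a floor of 16 the differences were 0.72 and 0.38 (0.192 and 0.438). Without ketogenic array 3 both Marco probe sets were higher (0.00228 and 0.0214), and without chow array 1 the probe set 1458297_s_at was (0.00445).

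**Figure D3:**
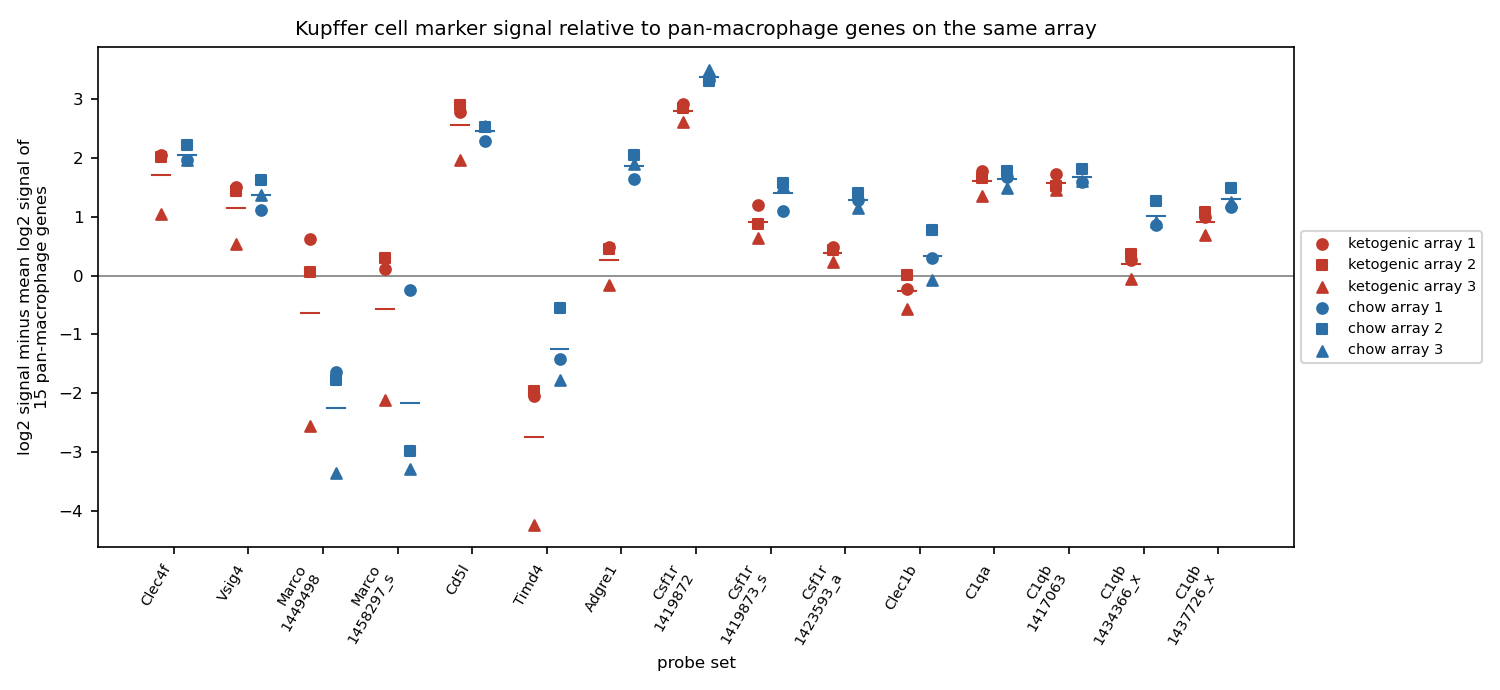
Log2 signal of each Kupffer cell marker probe set minus the mean log2 signal of the 15 pan-macrophage genes on the same array, for the ketogenic (red) and chow (blue) arrays, with bars at the means of 3 arrays. Adgre1, Timd4, Csf1r 1419872_at and 1423593_a_at, and C1qb 1434366_x_at and 1437726_x_at are lower on every ketogenic array than on any chow array. The other probe sets overlap between diets. The share of all probe sets that separate on this scale was not counted. Ketogenic array 3 (red triangle) is the lowest ketogenic array throughout.

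The order of the 3 ketogenic arrays was much the same for every marker. Ketogenic array 2 was the highest of its diet for 13 of the 15 probe sets and array 1 for the other 2, where array 2 was the highest for 62.1% of all 22515 probe sets tested. Array 3 was the lowest for 15 of 15 marker probe sets and for 68% of all, so the signal alone says little about the markers. Relative to the mean of the pan-macrophage genes on the same array it was again the lowest for 15 of 15 marker probe sets, against 57% of all. By gene, on the brightest probe set, array 3 was the lowest ketogenic array for 10 of 10 Kupffer cell markers, 7 of 15 pan-macrophage genes, 7 of 7 hepatocyte genes, 9 of 16 Kupffer cell regulators and further genes, 2 of 6 monocyte genes, 5 of 5 genes of the list of C1 partners, 3 of 3 neutrophil genes and 10 of 12 genes of the sinusoidal endothelium. It was the highest for 7 of 7 measured lipid-associated macrophage genes, 5 of 7 stellate cell genes, 6 of 16 Kupffer cell regulators and further genes, 3 of 6 monocyte genes and 4 of 15 pan-macrophage genes. This order of 3 arrays of 1 diet was noticed in the data and has no test.

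The other 9 markers were also set against Clec4f on the same array, a comparison added after the values were seen and given without a test; with 3 against 3 arrays an exact permutation p could not go below 0.1. Relative to Clec4f, Adgre1 was -1.57, -1.57 and -1.21 on ketogenic arrays and -0.33, -0.18 and -0.06 on chow arrays (log2), a difference of -1.26 without overlap. Timd4 differed by -1.16, also without overlap. Cd5l differed by 0.44 and Vsig4 by 0.13, again with every ketogenic array above every chow array. The other 5 overlapped between diets, with differences of -0.25 for Clec1b, -0.24 for Csf1r, 0.24 for C1qb and 0.30 for C1qa, and of 1.02 for Marco 1458297_s_at when signals under background were raised to it. How often other genes separate by diet on this scale was not counted, so a lack of overlap does not set these markers apart. A ratio within an array shows unequal change and does not say which of the 2 genes changed.

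The profile of Clec4f over the 6 arrays, centred on its own mean, was compared with that of 11856 genes outside the markers by the root mean square of the log2 differences. The nearest were Maoa, monoamine oxidase A, at 0.163, Cdt1, a DNA replication licensing factor, at 0.195, Pcp4l1 at 0.210, Wfdc17 at 0.212 and Kif3c, a kinesin motor, at 0.217, where the median of those genes was 0.845. Maoa, for example, had 176.9, 207.2 and 109.2 on ketogenic arrays and 61.7, 54.2 and 48.8 on chow arrays. Among the markers, Vsig4 was at 0.111, nearer than any of these 5. Cd5l, C1qa, Clec1b, Csf1r and C1qb followed at 0.246 to 0.304, Adgre1 at 0.646, Timd4 at 0.767 and Marco at 1.47. With 6 arrays in 2 diets, nearness by this measure is largely a like change between diets.

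Of 16 measured regulators and further Kupffer cell genes 5 rose and 0 fell, with a median log2 change of 1.02, and 3 to 11 rose over the scalings of the arrays. Those that rose were the transcription factors Zeb2 and Irf8, the iron exporter Slc40a1, the haem-degrading enzyme Hmox1 and the complement factor Cfp, or properdin. Slc40a1 had 511 ± 53.5 on ketogenic and 131 ± 36.4 on chow arrays, Hmox1 had 134 ± 14.5 on ketogenic and 32.5 ± 5.97 on chow arrays, and Cfp had 174 ± 57.7 on ketogenic and 33.5 ± 2.33 on chow arrays (SD, n = 3 each). Their limma adjusted p values were 0.00977, 0.00572 and 0.00750, and each was lost with no filter (0.0523 to 0.0751). The other, dimmer Cfp probe set had the opposite sign. The count was 3 without any 1 ketogenic array. Zeb2 changed by 1.09 (log2, limma adjusted p = 0.0347, and 0.00551 to 0.142 over 14 alternatives). As a gene it was not called without any 1 ketogenic array or without chow array 1 or 2. The same held with quantile normalization, a common trimmed mean or no filter. Without chow array 3 Zeb2 was called, on at least 1 of its probe sets. Irf8 changed by 1.31 on 1416714_at and was at least 4.76-fold higher on 1448452_at, which was under the filter level on chow and passed only through the ketogenic arrays (adjusted p = 0.0290 and 0.0470), calls lost in 10 of 14 and 8 of 13 alternatives, both without any 1 ketogenic array or chow array 1 (at most 0.123 and 0.227, at least 0.00302 and 7.7e-05).

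Regulators and surface genes that did not pass are named here after their values were seen. Nr1h3, the liver X receptor alpha, had 158 on ketogenic and 145 on chow arrays (means of 3; log2 change 0.12). Id3 had 394 on ketogenic and 265 on chow arrays, with a log2 change of 0.68 and limma adjusted p = 0.330. Cd163, the haemoglobin scavenger receptor, changed by 0.75 (adjusted p = 0.404), Folr2, a folate receptor, by 1.84 (0.0618) and Fcna, the soluble lectin ficolin A, by 1.22 (0.110). Folr2 passed in 5 of 14 alternatives (0.00779 to 0.248) and Fcna in 3 of 14 (0.0215 to 0.313), both among them with the hybridization controls, a floor of 16 and a trended robust prior. C6, a component of the membrane attack complex, had 233.9, 316.8 and 340.8 on ketogenic and 686.5, 488.2 and 753.0 on chow arrays, without overlap, and a log2 change of -1.11 with adjusted p = 0.0661. It was called lower with a floor of 16, with a trended robust prior and with 1 test per gene (0.00662 to 0.237 over 14 alternatives). Spic, a regulator of haem handling, was too dim to be tested.

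Of 12 measured phagocytic and scavenger receptors 7 rose and 0 fell, with a median log2 change of 1.51, and 3 rose without ketogenic array 3. Axl, a receptor for apoptotic cells, had 139 ± 16.1 on ketogenic and 26.7 ± 2.54 on chow arrays (adjusted p = 0.00212). Itgb2, the common chain of leukocyte integrins, had 152 ± 25.6 on ketogenic and 28.8 ± 10.6 on chow arrays (SD, n = 3 each; adjusted p = 0.00635). Itgax, the integrin chain CD11c, rose by 2.10 (adjusted p = 0.0125). With no filter Itgb2 (0.0643) and Itgax (0.0919) were lost and Axl was the 1 gene of the list called.

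Markers of cells that could accompany or replace Kupffer cells differed by type, and their part in the marker results was not tested. Of 6 measured monocyte genes 3 rose (S100a8, S100a9 and Plac8) and 0 fell, with a median log2 change of 2.17, or 1.30 with genes under background on chow at their bound. The list assigns S100a8 and S100a9 to monocytes, though neutrophils also make them. S100a8 rose at least 2.50-fold and S100a9 at least 2.41-fold, both with signals under background on chow, and Plac8 had 177 ± 20.1 on ketogenic and 46.4 ± 2.32 on chow arrays (SD, n = 3 each). The list's summed signal overlapped, at 1227 to 1580 on ketogenic and 1144 to 1757 on chow arrays, but at least 75.8% of it on every array was that of F10, coagulation factor X (930 to 1307 on ketogenic and 1048 to 1670 on chow arrays). Without F10 the sum was 237.3 to 299.2 on ketogenic and 71.6 to 95.8 on chow arrays. S100a8 and S100a9 passed the filter only through the ketogenic arrays and were not tested when any 1 of these was left out, which left Plac8 as the 1 gene called; without chow array 1 the count was 5. Ccr2, the chemokine receptor that defines inflammatory monocytes, had log2 changes of 1.84, 1.32 and -0.46 on its 3 probe sets, none past the threshold in the main fit. It was called higher without chow array 1 and when arrays were scaled to the hybridization controls. Ccr2 is named after its values were seen.

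Of 7 measured genes of lipid-associated macrophages 6 rose and 0 fell, with a median log2 change of 2.20. Mmp12, macrophage elastase, had 95.5, 120.9 and 182.1 on ketogenic and 1.4, 1.4 and 2.3 on chow arrays, at least 11.9-fold (limma adjusted p = 0.000186). Gpnmb, a lysosomal glycoprotein, rose at least 12.4-fold (0.000927), and Lgals3, galectin-3, had 446 ± 61.1 on ketogenic and 18.9 ± 4.65 on chow arrays (SD, n = 3 each; 0.000383). The list's summed signal was 1484 to 2398 on ketogenic and 233.2 to 622.9 on chow arrays, and 4 rose without ketogenic array 3. Mmp12 and Gpnmb were under the filter level on chow and passed only through the ketogenic arrays, so 4 of the 6 genes rose on probe sets that did not depend on this; Mmp12 was not tested when any 1 ketogenic array was left out. Trem2 was too dim to be tested. Itgax is counted both here and among the phagocytic and scavenger receptors.

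Of 7 measured stellate cell genes 5 rose and 0 fell (summed signal 2677 to 3545 on ketogenic and 1230 to 1440 on chow arrays; Hgf was called on a probe set under the filter level on chow), among them Lrat, which makes retinyl esters, the matrix protein gene Dcn and Rgs5. Their log2 changes were 1.39, 1.25 and 1.59. Dcn was lost without any 1 array, Lrat without any 1 ketogenic array or chow array 2, and Rgs5 without ketogenic array 3 (limma adjusted p of 0.000481 to 0.114, 0.00191 to 0.0834 and 0.000818 to 0.0860 over the alternatives). The count of 5 was 0 without ketogenic array 3, 1 without ketogenic array 1 and 2 without ketogenic array 2 or chow array 2 or 3. Of 12 measured genes of the sinusoidal endothelium 1 rose, Tek, an angiopoietin receptor (log2 change 1.19, limma adjusted p = 0.0411), and it was lost without any 1 ketogenic array and without chow array 2 or 3 (at most 0.157, at least 0.00597 over 14 alternatives). Their summed signal was 1315 to 1829 on ketogenic and 837.8 to 1306 on chow arrays, and 7 rose when arrays were scaled to the hybridization controls. Of 3 neutrophil, 4 B cell and 2 dendritic cell genes measured 0 rose and 0 fell (1 dendritic cell gene rose without chow array 3 and when scaled to the hybridization controls), and the 4 T cell genes on the array were too dim to be tested. The brightest of these were Elane, neutrophil elastase (log2 change -0.87, adjusted p = 0.260), Pax5, a B cell transcription factor (-0.51, 0.418), and Zbtb46, a dendritic cell transcription factor (0.76, 0.437). The 3 neutrophil genes were dim, with a summed signal of 37.3 to 82.7 on ketogenic and 66.8 to 98.1 on chow arrays. Camp and Ltf, also neutrophil genes, were too dim to be tested. Of the 7 hepatocyte genes 0 rose and 1 fell, Tat, tyrosine aminotransferase, at 769 ± 259 on ketogenic and 3088 ± 852 on chow arrays (SD, n = 3 each; adjusted p = 0.0148), lost without ketogenic array 3 and with no filter (at most 0.104, at least 0.000267).

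**Figure D4:**
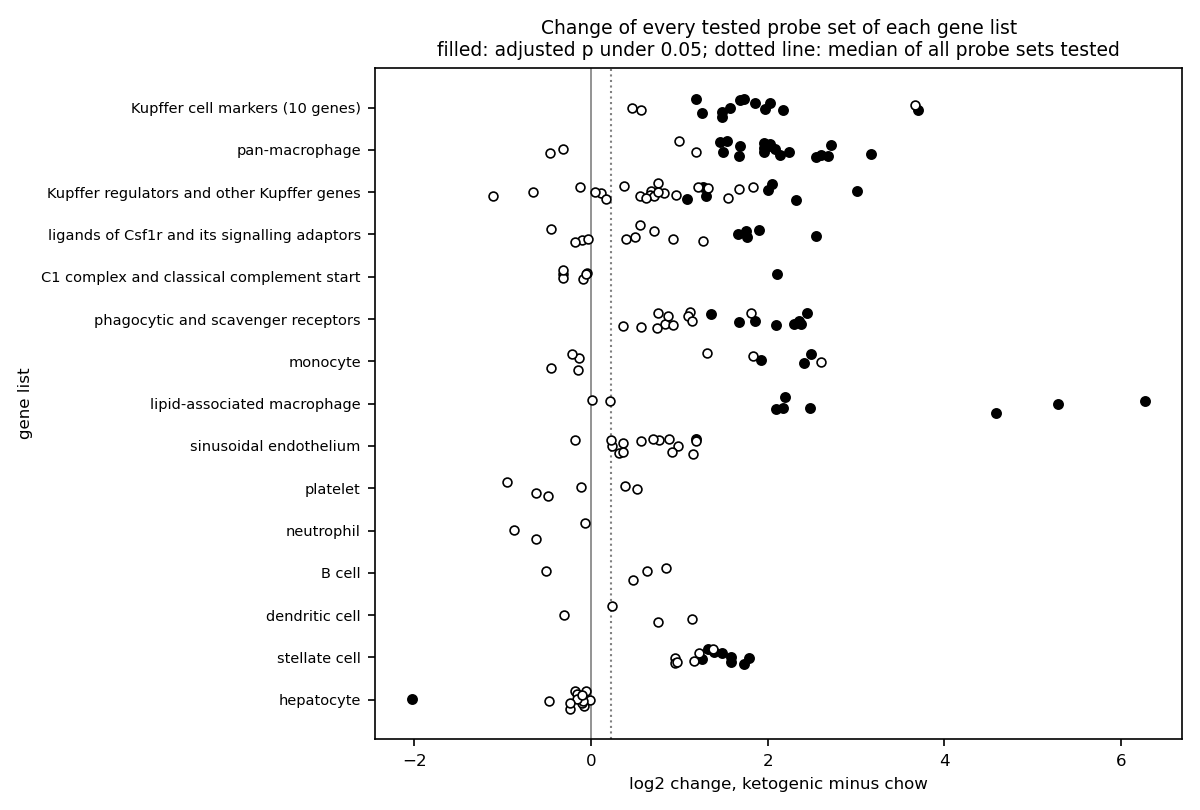
Log2 change (ketogenic minus chow) of every tested probe set of each gene list, 1 line a list with the 10 Kupffer cell marker genes at the top; filled points have a limma adjusted p under 0.05, and the dotted line is the median of all probe sets tested, 0.22. The filled points run from 1.18 to 3.70 for the Kupffer cell markers and from 1.46 to 3.18 for the pan-macrophage genes. These are fitted values, the highest being those of Marco and Aif1, whose mean log2 signal on chow lay under background. The lipid-associated genes reach the highest values. All 13 hepatocyte probe sets lie below 0, with a median of -0.18 over the genes, and Tat is the 1 that passed.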

How the data were processed

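Total liver RNA of 6 arrays, 3 ketogenic and 3 chow, was analysed. The deposited values are linear intensity for each probe set. Per the submitters' processing notes the authors used GCOS and MAS5, with versions, scaling target and settings not given in the sources used here. Replicate numbers follow the order of deposition, so they pair nothing across diets, and no 2 arrays held identical values.

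The deposited scaling was kept. Signals below 1.1, the 10th percentile, were set to 1.1 before log2 was taken, and probe sets with a mean at or above the median (3.35, a signal of 10.2) were kept, 22515 of 45101 without the 64 controls. Diets were compared for each probe set with limma 3.58.1 (lmFit, eBayes; R 4.3.3), two-sided, Benjamini-Hochberg adjusted, at a threshold of 0.05, with 4 residual and 4.68 prior degrees of freedom. A gene was counted as higher where at least 1 probe set was. The fit was repeated after subtracting on each array the mean log2 signal of the 15 pan-macrophage genes, each on its brightest probe set. Background, 10.8, is the mean over arrays, in log2, of the 95th percentile of the 27 probe sets for bacterial controls; where a diet's mean log2 signal lay below it, a fold is given as a lower bound with signals raised to it. There is no read depth on arrays; precision is limited by their number.

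Symbols came from the platform annotation (34958 probe sets with 1 symbol, 932 with several, 9211 not listed); 34754 matched RefSeq of build GRCm38.p6 and 0 changed. The members and gene lists were chosen with earlier results of these data known. Beside the markers, up to 3 genes of each list with the lowest p among those that passed were named, or else the brightest, and the 5 genes nearest to Clec4f. The fit was tested on simulated data in which 200 of 22515 probe sets were changed. It recovered 0.55% of 2-fold and 45.9% of 4-fold changes, and 5.97% of its calls were false. A gene that did not pass may therefore still have changed 2-fold. In the data 918 probe sets were called higher and 127 lower, more than were changed in the simulation. The Benjamini-Hochberg cutoff differs for that reason, so the recovered shares do not give the power of the fit to the data. The 14 alternatives were 4 scalings (common median, quantile, common 2% trimmed mean, hybridization controls), a floor of 16, no filter, a trended robust prior, 1 test per gene and leaving out each array. Protein sequences were not used here.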

Additional observations from a re-analysis of the deposited data

How the results depend on the processing

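No paired analysis was possible because the replicate numbers only follow the order of deposition. Over the 14 alternatives 0 values of the markers changed sign among those called; of the markers' values 152 kept their side of the threshold, 49 lost it and 4 gained it, and relative to the pan-macrophage genes 189 kept it, 12 lost it and 4 gained it. The number of marker genes higher, 8 as reported, was 7 with a common median, quantile normalization, a common trimmed mean or a trended robust prior (Marco not called), 8 with the hybridization controls, a floor of 16 or 1 test per gene, 3 to 7 when 1 array was left out, and 1 with no filter (45037 probe sets tested, the dim ones included). Relative to the pan-macrophage genes the number of genes lower, 4 as reported (Adgre1, C1qb, Csf1r and Timd4), was 2 to 5 when 1 array was left out, 3 with no filter or 1 test per gene, and 4 with Aif1 left out of the mean, an alternative chosen after seeing the data, and the number higher, 0 as reported, was 0 to 1. Over all probe sets the scalings moved the median change by -0.11 (common median), -0.23 (quantile), -0.21 (trimmed mean) and 0.36 (hybridization controls). The numbers called higher and lower were 918 and 127 as deposited, then 1068 and 312, 646 and 355, 780 and 403, and 4985 and 128 under these scalings, a share higher of 87.8% as deposited and of 77.4%, 64.5%, 65.9% and 97.5%. They were 1814 and 309 with a floor of 16, 1578 and 294 with a trended robust prior, and 140 and 38 with no filter. The number of arrays, 3 per diet, limits the precision, and the missed threshold of Adgre1 and Timd4 does not show that their levels were equal.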
